A study of Homo sapiens with 6 samples.

Results

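AXIN2, LGR5, ASCL2, RNF43, ZNRF3, NKD1, LEF1, TCF7, APCDD1 and LRIG1 are genes used as readouts of Wnt signalling or of intestinal stem cells. They were chosen by symbol, and all 10 were found among the 27264 gene rows of a count table from DLD-1, an established human colorectal cancer cell line. The sample descriptions add TR21 to the name of the line and do not explain it. Of the 10 members, 9 passed the low-count filter and were tested, and LRIG1 did not pass it. The libraries come from 3 clones labelled ZEB2 WT (WT2, WT5 and WT37), each sequenced once without DOX, the usual short form of doxycycline, and once with it. That makes 3 untreated libraries, labelled epithelial, and 3 treated ones, labelled mesenchymal, and the series title speaks of an epithelial to mesenchymal transition mediated by ZEB2. The sources used here give neither dose nor duration of DOX. DOX-treated DLD-1 cells without a ZEB2 construct are not analysed here, so effects of DOX itself and of ZEB2 cannot be told apart. Below, 3 values given together are in the order WT2, WT5, WT37.

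In canonical Wnt signalling, a Wnt ligand bound to Frizzled and LRP receptors stops the complex of APC and AXIN from marking beta-catenin for degradation, and beta-catenin then joins TCF and LEF proteins at target genes. Several targets encode brakes on the same pathway, which makes them common readouts of its activity. DLD-1 cells are known to carry truncated APC, which stabilises beta-catenin without a ligand, and crypts of the colon depend on the pathway to keep their LGR5-positive stem cells.

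Libraries held 5440093 to 7164426 reads in genes. ZEB2 (ENSG00000169554) was low throughout, with 9, 5 and 3 reads in the untreated and 20, 9 and 22 in the treated libraries. It was higher with DOX in 3 of 3 clones, by 0.92, 0.63 and 2.81 on the log2 scale, and the groups overlapped (exact permutation test, two-sided p = 0.2, smallest possible p 0.1). The kit reads transcript ends, so a ZEB2 transgene with another end would be missed. Of 8 colon epithelium markers 7 were tested, with a median log2 difference of -0.75, -0.19 and -0.96 in the 3 clones; with the clone as a block EPCAM and KRT18 fell and CDX2 rose. Summed over the 6 fibroblast markers in the table, levels were 0.579 to 1.92 CPM (counts scaled to a library size of 1e6) in untreated and 0 to 1.7 in treated libraries, and 1 of the 6 was at 0 in all libraries. In such bulk libraries fewer cells of a type and less RNA per cell cannot be told apart.

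Over all genes, the DOX comparison without a block (edgeR, quasi-likelihood, adjusted p under 0.05) called 0 of 11732 genes, or 0%, and 709 (6.04%) had an unadjusted p under 0.05. With the clone as a block 152 were called (1.3%), of which 0.656% of all genes were higher and 0.639% lower. Of the 9 tested members 0 were called in either fit or by DESeq2 in either design, and 1 (AXIN2) and 2 (RNF43 and ZNRF3) had an unadjusted p under 0.05 without and with the block, the latter beside 12.9% of all genes. The members' median log2 fold change was 0.08 without the block and 0.09 with it, beside 0.01 over all genes in both fits. Without the block 6 members were above 0 and 3 below 0, where 51.3% of all tested genes were above 0.

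The members differed widely in abundance, and their order was nearly the same in every library. Levels are CPM scaled by edgeR's TMM factors. The kit yields 1 fragment per transcript end, so levels of different genes can be set side by side without a correction for length. ASCL2 had the highest mean, 374 ± 57.5 CPM (SD, n = 6 libraries), followed by AXIN2 with 219 ± 95.5, RNF43 with 71.4 ± 10.8, ZNRF3 with 54.1 ± 6.29 and LEF1 with 39.8 ± 6.06. Below them came TCF7 with 29.3 ± 2.67, NKD1 with 16.3 ± 4.57, LGR5 with 8.99 ± 2.87, APCDD1 with 3.17 ± 2.99 and LRIG1 with 0.325 ± 0.323 CPM. Ranges overlapped between ASCL2 and AXIN2, RNF43 and ZNRF3, LEF1 and TCF7, NKD1 and LGR5, and LGR5 and APCDD1. They were separate for the other 4 neighbours in that order, by only 45.7 against 45.5 CPM for ZNRF3 and LEF1. Within libraries the order of neighbours held in 5 of 6 for ASCL2 over AXIN2 and for LEF1 over TCF7, and in 6 of 6 for the others.

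**Figure D1:**
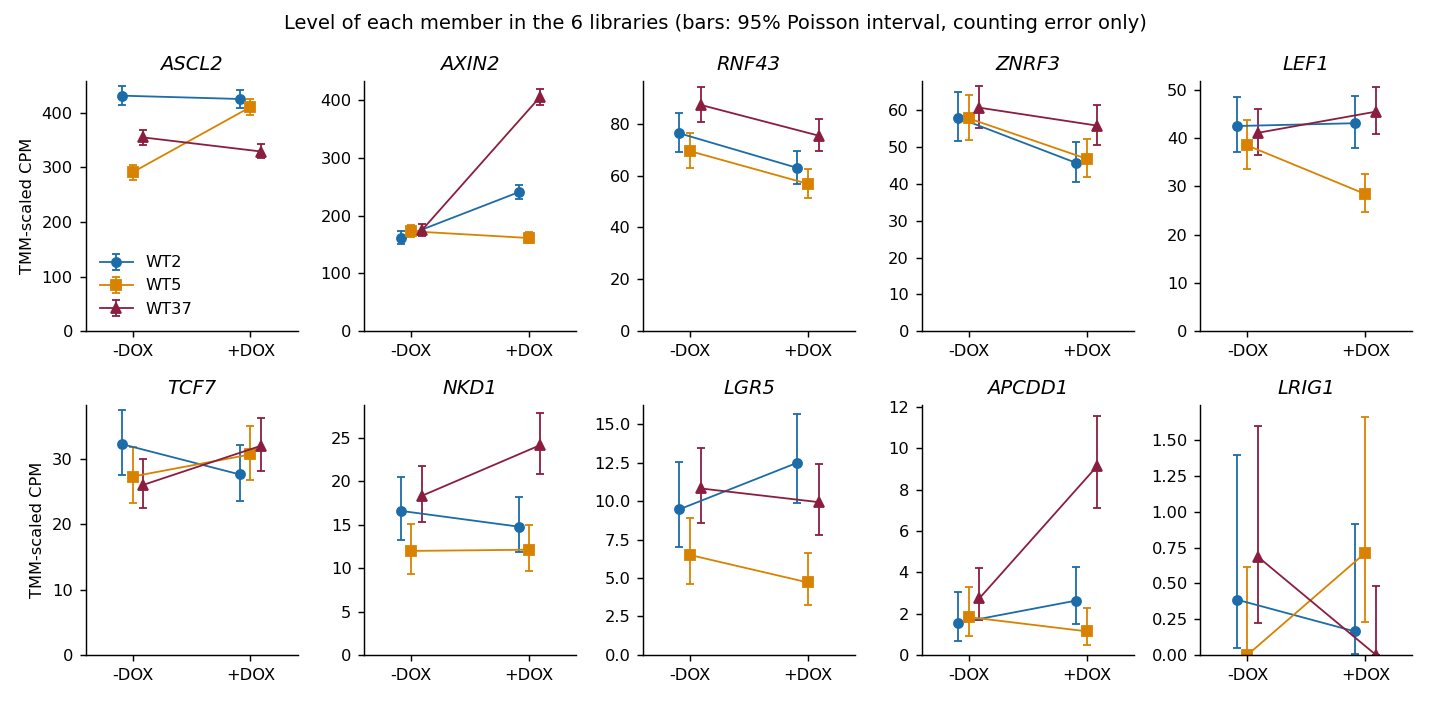
Level of each member in TMM-scaled CPM without and with DOX, by clone; bars are 95% Poisson intervals of single libraries and cover counting error only. AXIN2 lies between 162 and 175 CPM in the 3 untreated libraries and at 240, 161 and 405 CPM in the treated ones, while ZNRF3 is lower with DOX in every clone.

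AXIN2 is the feedback inhibitor most often used as a readout of the pathway, a scaffold of the complex that degrades beta-catenin (ENSG00000168646, GRCh38 chromosome 17, 65528563 to 65561647, minus strand). The 3 untreated libraries were close together at 162, 173 and 175 CPM, and the treated ones spread to 240, 161 and 405. The mean was 170 ± 7.18 CPM without and 269 ± 124 with DOX (SD, n = 3). WT37 and WT2 were higher with DOX and WT5 was not, so that the groups overlapped (exact permutation test, two-sided p = 0.4). The annotation places AC004805.1 on the same strand with 1316 exon bases shared, and it is not a row of the table.

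Within clones, AXIN2 differed with DOX by 0.57 on the log2 scale in WT2 (95% interval 0.45 to 0.70), by -0.10 in WT5 (-0.22 to 0.02) and by 1.21 in WT37 (1.12 to 1.31). These exact intervals, here and below, cover the counting error of 1 library per condition and not the spread between cultures. The intervals of the 3 clones do not overlap one another, and that of WT5 holds 0. Over the clones, edgeR's log2 fold change was 0.66 ± 0.28 SE without the block (adjusted p = 0.791) and 0.57 ± 0.25 with it (adjusted p = 0.421), and neither passed. Over 24 alternatives it lay between 0.24 and 0.94, always above 0, with adjusted p from 0.00272 to 1. It passed in 3 of them: with the block and without WT5 (0.91, adjusted p = 0.00272), and with no low-count filter without and with the block (adjusted p = 0.00896 and 0.0175). Without WT37 the blocked value was 0.24 (adjusted p = 0.980).

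A comparison added after the data had been seen set each clone's DOX difference against that of the other clones (edgeR, 1 residual degree of freedom per gene). For AXIN2 the difference of differences was -1.01 ± 0.23 SE in WT5 (unadjusted p = 0.00111, adjusted p = 0.0832), 0.97 ± 0.26 in WT37 (unadjusted p = 0.00144, adjusted p = 0.674) and 0.01 ± 0.77 in WT2 (adjusted p = 1). Of the 9 members 0 were called for any clone, where 0.725% of all genes were called for WT5, 0.00852% for WT37 and 0% for WT2. Unadjusted p was under 0.05 in 4 members for WT5 (AXIN2, ASCL2, LEF1 and APCDD1), 2 for WT37 (AXIN2 and APCDD1) and 0 for WT2, beside 14.1%, 3.28% and 1.99% of all genes. By point value, the clones had the same order in the size of the AXIN2, ZEB2 and negative epithelial marker differences given above. From highest to lowest AXIN2 difference it was WT37, WT2, WT5. Among the other tested members, APCDD1, LEF1 and RNF43 also had that order, and LGR5, ASCL2, ZNRF3, NKD1 and TCF7 did not. The counting intervals of ZEB2 overlapped, at -0.28 to 2.24 in WT2, -1.11 to 2.55 in WT5 and 1.07 to 5.19 in WT37. Those of WT2 and WT5 held 0, and that of WT37 rests on 3 against 22 reads, so the ZEB2 reads do not settle the order of the clones. What part ZEB2 or the markers had in the AXIN2 result was not tested.

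APCDD1, a membrane inhibitor that binds Wnt and LRP proteins (ENSG00000154856, chromosome 18, 10454628 to 10489948, plus strand), had few reads and the largest spread of the tested members. It had 8, 11 and 20 reads in the untreated and 16, 8 and 70 in the treated libraries, which is 1.54, 1.83 and 2.74 CPM against 2.63, 1.14 and 9.15. The treated WT37 library stood above all others, and the remaining 5 overlapped. In WT37 the log2 difference was 1.74 (interval 1.01 to 2.53), and the intervals of WT2 and WT5 held 0. Across clones edgeR gave 1.07 ± 0.67 SE without the block (adjusted p = 0.933) and 0.92 ± 0.43 with it (adjusted p = 0.390). Without the treated WT37 library the value was -0.15, and with the block and without WT5 it was 1.45 and passed (adjusted p = 0.0366).

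RNF43 and ZNRF3 are paralogous ubiquitin ligases of the cell membrane that remove Frizzled receptors, and R-spondins acting through LGR receptors hold them back. RNF43 (ENSG00000108375, chromosome 17, 58352500 to 58417595, minus strand) had 76.3, 69.4 and 87.2 CPM in the untreated and 63.0, 56.8 and 75.4 in the treated libraries. ZNRF3 (ENSG00000183579, chromosome 22, 28883592 to 29057487, plus strand) had 57.9, 57.8 and 60.7 CPM against 45.7, 46.8 and 55.8. Each was lower with DOX in 3 of 3 clones, as were 17.2% of all tested genes. No member was higher in 3 of 3 clones, where 17.8% of all genes were. The groups of ZNRF3 did not overlap (exact permutation test, two-sided p = 0.1, the smallest possible), which 6.08% of all genes showed in that direction and 5.32% in the other.

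With the block, edgeR's log2 fold change was -0.26 ± 0.10 SE for RNF43 (unadjusted p = 0.0265, adjusted p = 0.303) and -0.25 ± 0.11 for ZNRF3 (unadjusted p = 0.0424, adjusted p = 0.363), and without it -0.26 ± 0.15 and -0.25 ± 0.13. Neither passed over all genes. Both were below 0 in 24 of 24 alternatives, between -0.375 and -0.162 for RNF43 and between -0.345 and -0.198 for ZNRF3. With TMM the counting intervals of RNF43 lay below 0 in all 3 clones, and that of ZNRF3 reached 0.07 in WT37. Scaled by total reads in genes, RNF43 in WT37 was at -0.13 with an interval of -0.30 to 0.03, which holds 0. RNF43 shares 4326 exon bases on its strand with AC004687.2, which is not a row of the table, and 143 with SUPT4H1, so its count is uncertain to that extent.

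NKD1 binds Dishevelled and dampens the signal (ENSG00000140807, chromosome 16, 50548330 to 50649249, plus strand). It had 16.6, 12.0 and 18.4 CPM in the untreated and 14.8, 12.1 and 24.2 in the treated libraries, so that both WT5 libraries were the lowest and treated WT37 the highest. The log2 difference was 0.40 in WT37 (interval 0.07 to 0.73), and the intervals of the other clones held 0. Across clones it was 0.12 ± 0.27 SE without the block (edgeR, adjusted p = 0.990), and -0.22 without the treated WT37 library.

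**Figure D2:**
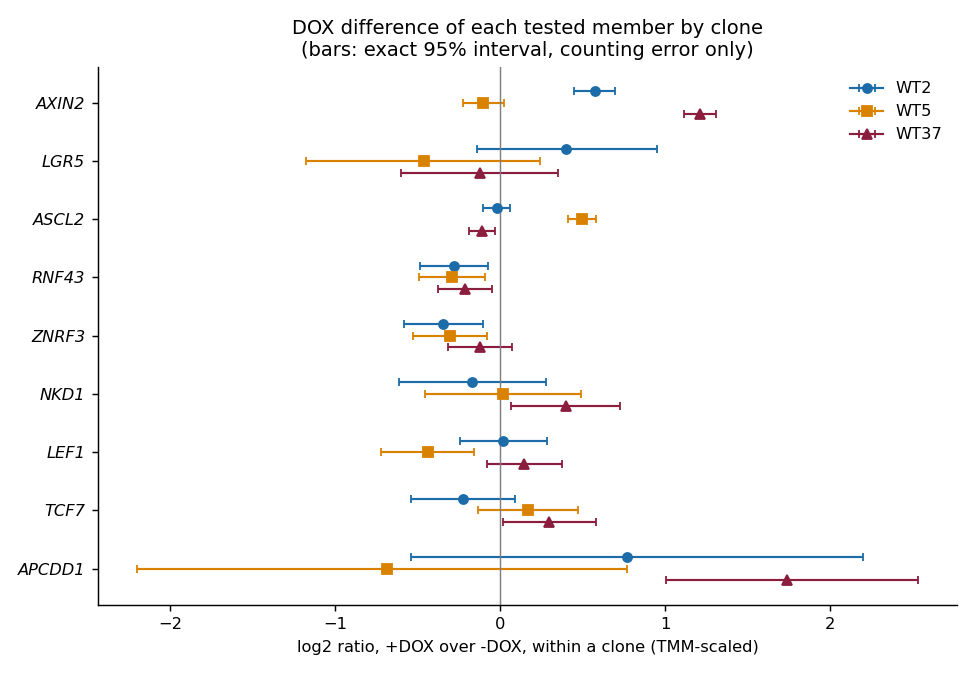
Log2 ratio with DOX over without DOX of each tested member in each clone, with exact 95% intervals for counting error. AXIN2 reads 0.57, -0.10 and 1.21 and ASCL2 -0.02, 0.50 and -0.11 in WT2, WT5 and WT37, whereas the 3 values of RNF43 lie between -0.29 and -0.21.

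LEF1 and TCF7 encode DNA-binding partners of beta-catenin and are themselves targets of the pathway. LEF1 (ENSG00000138795, chromosome 4, 108047545 to 108168956, minus strand) had 42.5, 38.5 and 41.1 CPM in the untreated and 43.1, 28.4 and 45.5 in the treated libraries. Treated WT5 was the lowest of the 6, with a log2 difference of -0.44 in that clone (interval -0.72 to -0.16), and the intervals of the other clones held 0. TCF7 (ENSG00000081059, chromosome 5, 134114711 to 134151865, plus strand) had 32.2, 27.3 and 26.0 CPM in the untreated and 27.6, 30.7 and 32.0 in the treated libraries, the smallest spread of the tested members. Its SD of log2 CPM over the 6 libraries was 0.13, at percentile 14.1 of all tested genes. The log2 fold changes were -0.06 ± 0.18 SE for LEF1 and 0.08 ± 0.15 for TCF7 without the block (edgeR, adjusted p = 0.993 and 0.986). LEF1 went to 0.09 without WT5, and TCF7 to -0.03 without WT37. SKP1 lies opposite TCF7 with 210 exon bases shared.

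LGR5, ASCL2 and LRIG1 mark intestinal stem cells. LGR5, the R-spondin receptor of these cells (ENSG00000139292, chromosome 12, 71439770 to 71586310, plus strand), had 49, 39 and 79 reads in the untreated and 76, 33 and 76 in the treated libraries. In CPM this was 9.46, 6.49 and 10.8 against 12.5, 4.71 and 9.93, with both WT5 libraries below all others. The intervals of the DOX difference held 0 in all 3 clones. The log2 fold change was 0.01 ± 0.35 SE without the block and -0.03 ± 0.22 with it (edgeR, adjusted p = 0.999 and 0.968), and over 24 alternatives it was above 0 in 12 and below 0 in 12.

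ASCL2, a basic helix-loop-helix factor of the crypt stem cell programme (ENSG00000183734, chromosome 11, 2268495 to 2270952, minus strand), was the most abundant member. It had 432, 291 and 355 CPM in the untreated and 425, 411 and 329 in the treated libraries, so that untreated WT5 was the lowest of the 6. The log2 difference was 0.50 in WT5 (interval 0.41 to 0.58), -0.11 in WT37 (-0.19 to -0.03) and -0.02 in WT2 (-0.10 to 0.06). Scaled by total reads in genes, the interval in WT37 was -0.11 to 0.05 and held 0. AXIN2 had the opposite sign in WT5 and WT37. In WT5 the AXIN2 value of -0.10 had an interval of -0.22 to 0.02, which holds 0. Against the other clones, ASCL2's DOX difference in WT5 was 0.56 ± 0.14 SE (edgeR, added after seeing the data, unadjusted p = 0.00264, adjusted p = 0.109) and did not pass. Across clones it was 0.11 ± 0.16 SE without the block (edgeR, adjusted p = 0.979), and -0.06 without WT5.

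LRIG1, an inhibitor of receptor tyrosine kinases described in quiescent stem cells (ENSG00000144749, chromosome 3, 66378797 to 66501263, minus strand), had 2, 0 and 5 reads in the untreated and 1, 5 and 0 in the treated libraries. A count of 0 allows up to 3 reads, or 0.499 CPM in untreated WT5 and 0.392 CPM in treated WT37; the upper ends of the two-sided 95% Poisson intervals, as plotted, are 0.614 and 0.482 CPM. The exact permutation test gave a two-sided p = 1. Its smallest possible p is 0.1, so it could not have called a difference under 0.05 at any depth. With 0 to 5 reads per library a difference with DOX cannot be judged.

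Summed over the 10 members, levels were 677 to 830 CPM in untreated and 753 to 986 CPM in treated libraries. AXIN2 made up 41% of the sum in treated WT37 and 19.5% to 27.5% in the others. The sum of the other 9 members was 668, 505 and 603 CPM in untreated and 635, 592 and 581 CPM in treated libraries, lower with DOX in WT2 and WT37 and higher in WT5. ASCL2 was the largest part of it and had the same direction in each clone. It made up 33.4% of the sum of all 10 in treated WT37 and 43% to 54.5% in the other libraries. The direction of the sum is therefore not that of the 9 members as a set. Within a clone, with 0.5 CPM added to each level, 2 tested members were past a fold of 1.5 as higher in WT37 (AXIN2 and APCDD1), 1 in WT2 (APCDD1) and 0 in WT5, beside 7.88%, 6.86% and 6.4% of all genes. As lower, 0 members were past it in any clone on that scale, beside 5.67%, 5.55% and 4.54% of all genes in WT37, WT2 and WT5. Without the added 0.5 CPM, APCDD1 was past it as lower in WT5 (log2 difference -0.68, 11 against 8 reads). In WT2, APCDD1 rests on 8 against 16 reads with an interval that holds 0, and AXIN2 lies at the threshold, with a fold of 1.49 under TMM and 1.53 under scaling by total reads. With 0.5 CPM added, the members' median log2 difference was -0.02, -0.29 and 0.14, and in WT5 6 of the 9 were below 0.

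The clones were also compared with each other, with DOX as a covariate that is assumed to act alike in all of them. This edgeR test called 6.84% of all genes and 0 of the 9 members, and 4 members (APCDD1, NKD1, LGR5 and RNF43) had an unadjusted p under 0.05, as had 24.8% of all genes. Adjusted p was 0.0585 for APCDD1, 0.0666 for NKD1, 0.0766 for LGR5 and 0.164 for RNF43. Between pairs of clones 2 members passed, both as higher in WT37 than in WT5, where 3.17% of all genes were higher and 2.74% lower. NKD1 was higher there by 0.82 ± 0.21 SE on the log2 scale (edgeR, adjusted p = 0.0379), with a mean of 21.3 CPM in WT37 and 12.1 in WT5. APCDD1 was higher by 1.91 ± 0.51 (edgeR, adjusted p = 0.0475), with 5.94 and 1.49 CPM. Its untreated levels were 2.74 CPM in WT37 (counting interval 1.67 to 4.23) and 1.83 in WT5 (0.914 to 3.28), which overlap. Treated levels were 9.15 and 1.14 CPM. The DOX difference of APCDD1 was 1.74 in WT37 and -0.68 in WT5, where the fit assumes a shared value. Without WT2, where these are the only clones left, edgeR gave adjusted p = 0.0695 for NKD1 and 0.0902 for APCDD1, so both calls were lost. Members called between WT37 and WT2 numbered 0, beside 3.15% of all genes as higher and 2.68% as lower, and between WT5 and WT2 also 0, beside 0.682% and 0.341%.

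LGR5 was lower in WT5 than in WT2 by a log2 difference of -0.99 ± 0.28 SE and did not pass (edgeR, adjusted p = 0.160), with clone means of 10.98, 5.60 and 10.4 CPM. WT5 had the lowest clone mean in 7 of the 9 members, beside 31.9% of all tested genes, and WT37 the highest in 6, beside 38.7%. TCF7 is among the 7 with nearly equal means, 28.99 CPM in WT5 and 29.02 in WT37. Without WT5, edgeR's comparison of WT2 with WT37 called 1782 genes, where the fit with all clones called 802. Among them were AXIN2 (edgeR, adjusted p = 0.0423) and APCDD1 (0.0222), both with the higher clone mean in WT37. ASCL2 (0.0240) was also called, with the lower mean there. For AXIN2, WT2 and WT37 were at 162 and 175 CPM untreated and at 240 and 405 CPM treated. With no low-count filter the test over all clones called 1783 genes, among them AXIN2, LGR5, NKD1 and APCDD1. The number of genes tested changes with the filter and with the libraries kept. The counts of 1782 and 1783 are therefore not shares of the same total, and these member calls have no share of all genes beside them.

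RefSeq promoter windows (build GRCh38.p14) were found for RNF43, LEF1, TCF7, APCDD1 and LRIG1, and AXIN2, LGR5, ASCL2, ZNRF3 and NKD1 had no entry. The 250 bases before each of the 10 listed starts were searched on both strands for letters that TCF and LEF proteins prefer. These were CTTTGAA and its variants, namely the word CTTTGAT, further the word CTTTGTA, and also the word CTTTGTT. A second search was for CACCTG, letters that ZEB proteins bind. Of 35116 windows in the table, 12% held TCF and LEF letters and 17.5% held CACCTG, and among the 10 windows of the members these numbers were 1 and 2. TCF7 is shown because its inner start had both, and APCDD1 and RNF43 because their DOX differences are described above while their windows had neither. Each is written in the direction of the gene, without bases that GENCODE 29 places in exons, and capitals mark the matched letters, which lie on the opposite strand.
TCF7, inner start, plus strand, chr5:134123368-134123617: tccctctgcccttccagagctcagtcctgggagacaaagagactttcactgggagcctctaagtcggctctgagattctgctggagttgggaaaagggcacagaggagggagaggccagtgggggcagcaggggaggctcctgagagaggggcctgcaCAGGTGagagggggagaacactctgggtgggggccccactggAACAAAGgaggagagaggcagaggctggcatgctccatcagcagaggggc
APCDD1, plus strand, chr18:10454385-10454627: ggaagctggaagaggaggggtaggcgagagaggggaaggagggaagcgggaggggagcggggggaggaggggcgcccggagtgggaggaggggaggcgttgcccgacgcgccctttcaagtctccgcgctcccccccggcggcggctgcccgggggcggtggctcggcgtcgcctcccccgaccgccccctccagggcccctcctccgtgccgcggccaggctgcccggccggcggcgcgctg
RNF43, outer start, minus strand, chr17:58417596-58417784: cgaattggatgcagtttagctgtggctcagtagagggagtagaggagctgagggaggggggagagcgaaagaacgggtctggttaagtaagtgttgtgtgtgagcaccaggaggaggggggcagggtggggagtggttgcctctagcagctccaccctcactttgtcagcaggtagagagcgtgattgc
In TCF7 the TCF and LEF letters lie 50 to 44 bases and CACCTG 92 to 87 bases before the start, with no overlap. The remaining CACCTG match, before an inner start of LRIG1, lies 222 to 217 bases from it. G and C made up 62%, 77.2% and 56% of the whole windows of TCF7, APCDD1 and RNF43. A match describes letters only.

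For the 3 members with the largest SD of log2 CPM, the tested genes with the closest centred log2(CPM + 0.5) were listed, by root mean square difference over the 6 libraries. AXIN2 was matched most closely by ISM1, which encodes a secreted protein (0.0526), then by DENND5A (0.115) and the G protein subunit gene GNAI1 (0.117). ISM1 had 21.2, 21.3 and 22.7 CPM in the untreated and 29.1, 19.6 and 53.6 in the treated libraries, with the clones in the order of AXIN2. APCDD1 was matched by ULBP2, which encodes a ligand of a natural killer cell receptor (0.22), DOCK4 (0.223) and GPRC5B (0.239). LGR5 was matched by TOGARAM1 (0.105), DNAJC27-AS1 (0.108) and LY6G5C (0.122), with levels of 0.856 to 7.67 CPM. These genes were picked from 11732 for their likeness, over libraries that share clones.

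**Figure D3:**
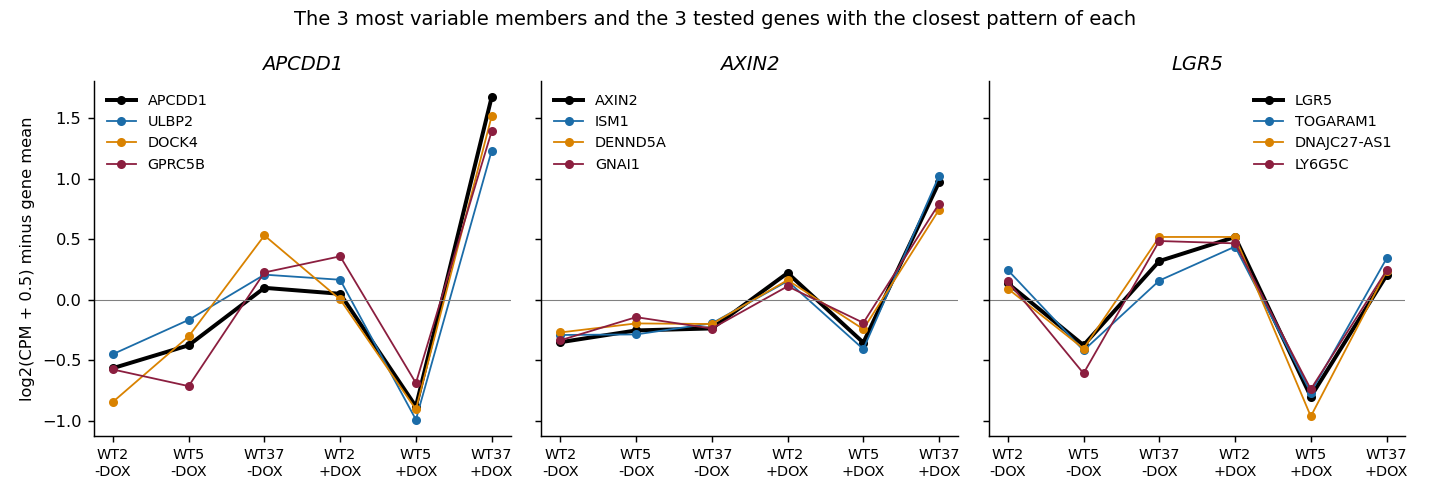
Centred log2(CPM + 0.5) of APCDD1, AXIN2 and LGR5 (black) and of the 3 tested genes closest to each (colours) in the 6 libraries. ISM1 runs within a root mean square of 0.0526 of AXIN2, and treated WT37 is the highest library for AXIN2 and APCDD1 but not for LGR5.

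Of 134 other genes of the pathway, listed by role, 120 were in the table and 83 were tested. Without the block 0 passed, and with it 1 rose (WNT5A) and 0 fell, beside 0.656% and 0.639% of all genes. With the block 20 of the 83 had an unadjusted p under 0.05 (edgeR), beside 12.9% of all genes. The median log2 fold change of the 83 was -0.02 without and -0.03 with the block. WNT5A, a ligand known mostly for signalling independent of beta-catenin, had 1.35, 0.832 and 2.60 CPM in the untreated and 4.60, 1.86 and 10.2 in the treated libraries. It was higher with DOX in 3 of 3 clones, by a log2 fold change of 1.75 ± 0.33 SE with the block (edgeR, adjusted p = 0.0305, and 0.678 without the block). With the block the call was lost without WT2 (adjusted p = 0.185), without WT37 (0.609) and in DESeq2's test (0.193). Medians without the block were -0.11 over 8 tested ligand genes, 0.14 over 13 receptors, -0.04 over 13 genes of the destruction complex and transducers, and -0.07 over 13 nuclear effectors. They were 0.18 over 3 secreted and membrane inhibitors, -0.16 over 18 other targets and -0.02 over 15 stem and crypt genes.

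CTNNB1, which encodes beta-catenin, had 401, 390 and 373 CPM in the untreated and 391, 327 and 377 in the treated libraries, a log2 fold change of -0.09 ± 0.09 SE with the block (edgeR, adjusted p = 0.726). APC had 32.6, 28.97 and 33.7 CPM against 32.0, 23.0 and 37.4 (-0.06 ± 0.14, edgeR, adjusted p = 0.897). TCF7L2, the main TCF of colon epithelium, had 97.5, 95.4 and 90.9 CPM against 79.1, 89.9 and 89.2 (-0.14 ± 0.10, edgeR, adjusted p = 0.619). None of the 3 passed the test, and of them TCF7L2 was lower in 3 of 3 clones.

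**Figure D4:**
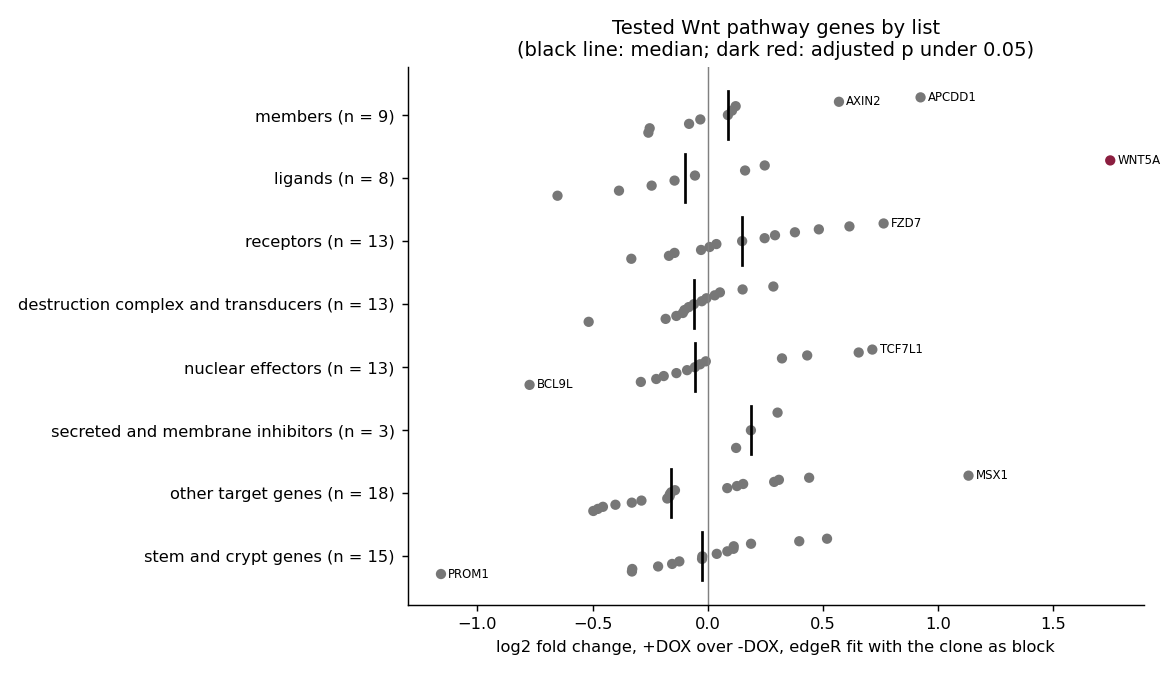
Log2 fold change with DOX over without DOX from the edgeR fit with the clone as a block, for the 9 tested members and the other tested pathway genes by list; black lines are medians and dark red marks adjusted p under 0.05. WNT5A, at 1.75, is in dark red, and APCDD1 (0.92) and AXIN2 (0.57) are the highest members.

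Between clones, 9 of the 83 other pathway genes were called (edgeR clone test), which is 10.8% beside 6.84% of all genes. PROM1, which encodes the stem cell surface protein CD133, had 14.5, 0.499 and 16.0 CPM in the untreated and 7.23, 0.571 and 5.75 in the treated libraries, with both WT5 libraries far below the rest (edgeR, adjusted p = 0.000391). Without WT5 the remaining clones gave an adjusted p of 0.922 (edgeR). Its DOX difference, -1.16 ± 0.26 SE with the block, did not pass (edgeR, adjusted p = 0.0582). WNT5A (adjusted p = 0.0158) and TLE4, a co-repressor of TCF proteins (0.0328), were higher in WT37 than in WT5, by 2.19 and 0.81 on the log2 scale (edgeR). LRP6, a Wnt co-receptor, was likewise higher there, by 0.62. TCF7L1, PYGO2, NKD2, CD24 and CDK6 were higher in WT37 than in WT2, by 2.11, 0.55, 1.21, 0.64 and 0.76, and CD24 has near-identical copies, so its count is uncertain. Leaving out a clone removes the contrasts with it, so the loss of a call that rests on them is no separate test. Without WT37, 7 of these 9 calls were lost, all but PROM1 and TCF7L1. Without WT2, 6 were lost, among them TCF7L1 (edgeR, adjusted p = 0.968), and PROM1, TLE4 and WNT5A passed. DESeq2's likelihood ratio test called only PROM1 of them, and without the DOX term none of the 9 passed (PROM1, edgeR, adjusted p = 0.0556).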

How the data were processed

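Messenger RNA of 6 libraries was read with a QuantSeq kit, which sequences transcript ends, per the labels' protocols. Values are whole-number read counts by Ensembl identifier, deposited by the authors without normalization. The submitters' processing notes name GRCh38 and DESeq2; the aligner, the counter and the use of strand are named nowhere in these sources. Reads of antisense overlaps cannot be told apart. Another 4 rows name no gene (reads mapped to several places took 11.8% to 16%) and were left out. Symbols came from an identifier table (22056) and GENCODE 29 (4858), and 350 identifiers stayed unnamed.

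Counts were tested with edgeR 4.0.16 in R 4.3.3 (TMM, filterByExpr, robust quasi-likelihood fit, Benjamini-Hochberg over 11732 genes, threshold 0.05); DESeq2 1.42.0 and limma 3.58.1 served as alternatives. The series design calls the clones biological replicates. Libraries of 1 clone deviated together (correlation 0.49, 0.282 and 0.537 for WT2, WT5 and WT37), so the clone pairs them; the biological coefficient of variation was 17.9% without and 10.9% with the block. Members filtered as low were compared by exact permutation. Named genes were all members, pathway genes called for DOX, at most 10 called between clones, ZEB2, CTNNB1, APC, TCF7L2, and the 3 closest patterns of 3 members. Members and lists were chosen with earlier results of these data known.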

Additional observations from a re-analysis of the deposited data

Results flagged for a closer look

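ASCL2 differed in its response to DOX between WT5 and WT37, with a log2 ratio of 0.50 in WT5 and -0.11 in WT37, a difference of 0.605. It is listed because the clones moved in opposite directions and both counting intervals leave out 0 under TMM. With 1 library per clone and condition, this difference between the pair of clones was not tested. Scaled by total reads in genes, the ratio in WT37 was -0.03, with an interval of -0.11 to 0.05 that holds 0, so this condition is not met under that scaling. Groups of 3 libraries were not examined for outlying samples.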

How the results depend on the processing

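With DOX, 0 genes were called in the chosen fit. DESeq2 called 57 and no low-count filter 206, and leaving out clones or libraries gave 0 to 35. With the clone as a replicate block edgeR called 152, DESeq2 127, limma-voom 185, no low-count filter 518, DESeq2 size factors 155 and the fit without a robust spread estimate (added after seeing the data) 183. The blocked fit called 8 genes without WT2, 736 without WT5 and 5 without WT37. Members called went from 0 to 1 (AXIN2) with no filter, to 1 (AXIN2) with the block and no filter, and to 2 (AXIN2 and APCDD1) with the block and without WT5. The block changed no other call of a member. The filter and the libraries kept change the number of genes tested, so these counts are not shares of the same total. The members' median ranged from -0.15 to 0.196 as samples were left out.

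RNF43, ZNRF3 and AXIN2 kept their direction in 24 of 24 alternatives. LGR5 reversed with limma-voom (-0.0882), with the block (-0.0324, and the same without a robust spread estimate), and with the block plus DESeq2 (-0.0493), limma-voom (-0.0173), no filter (-0.0251), size factors (-0.0337) or without WT2 (-0.267). As samples were left out without a block, LGR5 ranged from -0.286 to 0.318, ASCL2 from -0.0584 to 0.265, NKD1 from -0.22 to 0.317, LEF1 from -0.188 to 0.12, TCF7 from -0.027 to 0.235 and APCDD1 from -0.15 to 1.51. With the block, ASCL2 was -0.0634 and LEF1 0.0885 without WT5, and NKD1 was -0.076 and TCF7 -0.0237 without WT37. The cause of these changes was not tested. APCDD1 has no value under the stricter filter.

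Between clones 802 genes were called, 436 by DESeq2's likelihood ratio test, 248 without the DOX term, 1783 with no filter, and 129 (without WT37) to 1782 (without WT5) as clones were left out, with 406 without WT2. Members called rose from 0 to 4 with no filter, and ranged from 0 to 3 as clones were left out. Here too the number of genes tested changes with the filter and the libraries kept. Few reads limit APCDD1, LGR5 and LRIG1.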
